A study of Mus musculus with 30 samples.

Results

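The genes described here are 10 genes of myeloid and mast cells, Ccr1, Ccr1l1, Tlr4, Ly9, Rgs18, Hdc, Slc18a2, Plac8, Clec4d and Cd200r4, in murine erythroleukemia (MEL) cells with and without the mitochondrial transporter Abcb10. They were picked by symbol from the 54532 Ensembl genes of 1 table of read counts, and they were chosen on these data, because their levels in the knockout and their fall during differentiation had been seen. Their own differences between genotypes and between days are therefore given as a description with standard errors, without p-values. MEL cells are virus-transformed mouse erythroid precursors, here of the DS19 line, that take on a red cell program in dimethyl sulfoxide (DMSO). The RNA came from WT cells and from Abcb10 knockout cells (Abcb10-null) at day 0 without treatment, at day 2 and at day 5 of culture with DMSO at 1.5%, as 5 biological replicates for each of the 6 combinations. The knockout cells were made with CRISPR/Cas9 and grown from single cells, and the RNA of Abcb10-null came from 1 such clone, named Clone 12 in the study and not named in the labels. Loss of Abcb10 and differences of that clone from its parent line therefore cannot be told apart in any comparison of genotypes below.

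Mast cells, basophils, monocytes and granulocytes share a myeloid origin with red cells, and early erythroid precursors still carry some of their genes before differentiation shuts them off. Histamine is made from histidine by histidine decarboxylase (Hdc), loaded into granules by the vesicular monoamine transporter (Slc18a2, also called VMAT2) and inactivated by histamine N-methyltransferase (Hnmt). Ccr1 binds inflammatory chemokines such as Ccl3, Ccl5 and Ccl9, Tlr4 senses bacterial lipopolysaccharide, Ly9 is an adhesion receptor of the SLAM family, and Rgs18 shortens signals from G protein-coupled receptors in platelets and myeloid cells. Clec4d is a C-type lectin that recognizes microbial glycolipids, Cd200r4 is an activating receptor of the CD200 receptor family, and Plac8 is a small cysteine-rich protein of myeloid cells.

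The 30 libraries held between 9906783 and 20157768 reads assigned to genes. Levels are given as CPM, the count over the library size after scaling by the trimmed mean of M-values (TMM). Abcb10 itself, the targeted gene, fell in the null cells by 0.68 ± 0.063 (SE) on the log2 scale at day 0, by 1.54 ± 0.19 at day 2 and by 2.54 ± 0.12 at day 5, and no null library overlapped a WT library of the same day. Erythroid markers were present in every group, with all 10 listed over 3 counts. Their summed level had the same median, 2740 CPM, in both genotypes at day 0, and medians of 21700 (WT) and 7300 CPM (Abcb10-null) at day 5. Markers of mature myeloid cells were sparse. The 6 mast cell markers summed to between 0.567 and 1.39 CPM in WT at day 0 and to between 3.84 and 6.81 CPM in Abcb10-null, with Cma1 at 0 in WT and Tpsb2 at 0 in Abcb10-null. Of 6 neutrophil markers, Ly6g, S100a8, S100a9 and Ngp were at 0 in all 10 day 0 libraries, and of 5 macrophage markers, which summed to 7.23 to 8.65 in WT and 9.78 to 14.5 CPM in Abcb10-null, C1qa was at 0 in them. Eosinophil markers summed to 48.3 to 61.5 CPM in WT and 66.5 to 91.7 in Abcb10-null at day 0. Nearly all of that sum was Siglecf, at means of 53.1 (WT) and 72.6 CPM (Abcb10-null), while Prg2, Epx and Il5ra stood at or below 0.87 CPM. Megakaryocyte markers summed at day 0 to 322 to 430 CPM in WT and 370 to 417 CPM in Abcb10-null. On that day T cell markers stayed at or below 1.37 and B cell markers at or below 4.1 CPM. The part of other cells in the differences below was not tested. In bulk RNA a few cells of another type and a low level in every cell cannot be told apart.

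At day 0 all 10 genes were higher in Abcb10-null than in WT, and every null library lay above every WT library for each of them. Among the 12912 genes tested at day 0, 19.7% were called higher in Abcb10-null (edgeR quasi-likelihood test, Benjamini-Hochberg adjusted p under 0.05), and in 13.7% every null library lay above every WT library. At day 2, 8 of the 10 passed the count filter (not Plac8 and Clec4d), 7 were called higher and 6 of the 8 did not overlap, beside 14.9% and 8.01% of all genes tested. The call of Cd200r4 at day 2 was lost in 7 of 10 fits that left out 1 library, and that of Clec4d at day 0 with all 30 libraries in 1 fit. At day 5, 7 passed (not Plac8, Clec4d and Cd200r4), 6 were called higher and the same 6 did not overlap, beside 19.8% and 13.5% of all genes tested. None of the 10 was called lower at any day, beside 16.2%, 16.9% and 17.8% of all genes at days 0, 2 and 5. These counts restate the choice of the genes. The 10 fell into 3 patterns over the days, which order the account that follows.

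**Figure D1:**
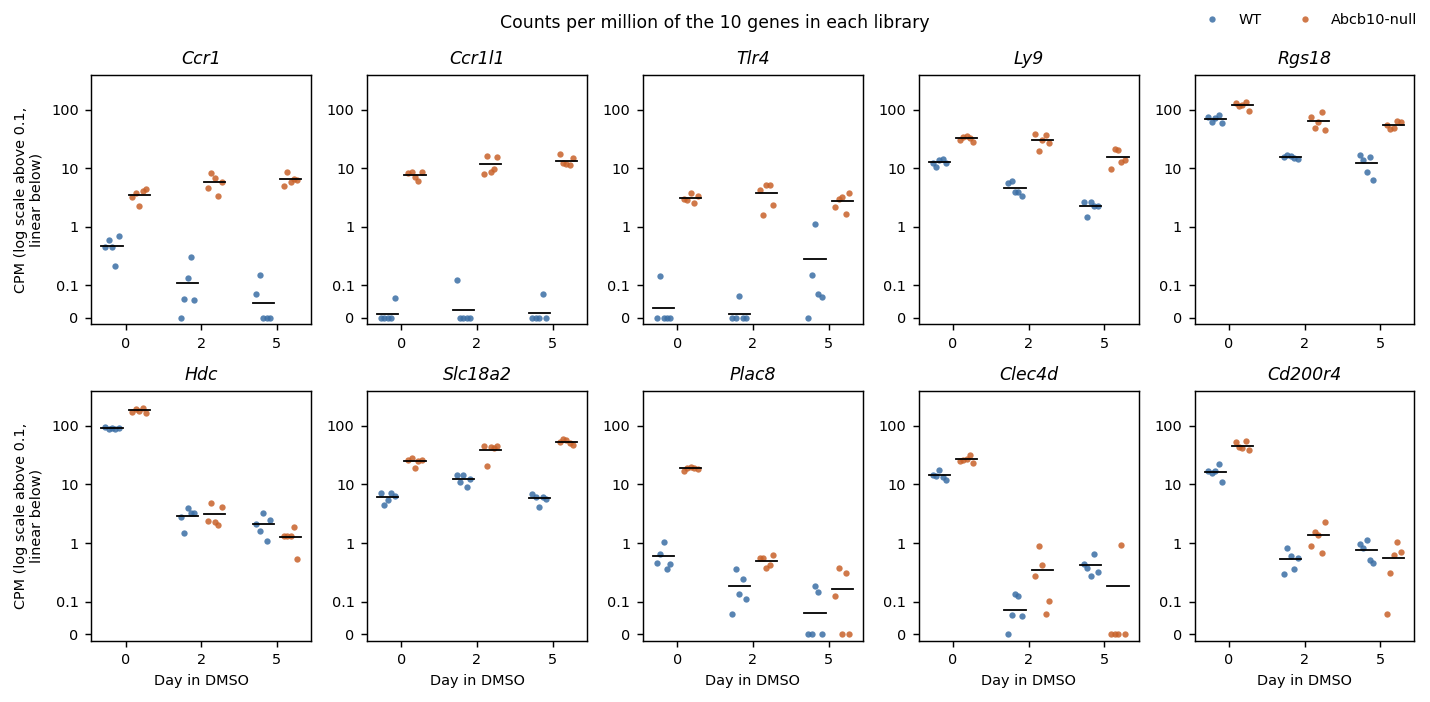
CPM of each of the 10 genes in every library (1 point each, n = 5 per genotype and day, black bar = mean), by day in DMSO, for WT (blue) and Abcb10-null (orange); the vertical axis is logarithmic above 0.1 CPM and linear below. Ccr1, Ccr1l1 and Tlr4 stayed on in the null cells at all days, Ly9, Rgs18 and Slc18a2 were present in both genotypes with the null cells higher, and Hdc, Plac8, Clec4d and Cd200r4 dropped from day 0 to day 2 in both genotypes.

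The first pattern was expression in Abcb10-null cells at every day over a WT level of a few reads. Ccr1 and Ccr1l1 are neighbouring receptor genes on the minus strand of chromosome 9 (GRCm38), Ccr1 at chr9:123962124-123968692 with 2 merged exons and Ccr1l1 at chr9:123977243-123978408 with 1 exon in the annotation used here. The coding sequences of Ccr1 (1065 bases) and Ccr1l1 (1068 bases) were 76.0% identical, and no stretch of 51 bases, the read length, was shared between the exons of either gene and any other transcript. The first stretch of 120 coding bases that aligned without a gap is shown as an example of how this pair differs. It covers coding bases 84 to 203 of Ccr1 (chr9:123964289-123964408, minus strand) and 87 to 206 of Ccr1l1 (chr9:123978203-123978322, minus strand), with the 29 differing bases in capitals.
Ccr1: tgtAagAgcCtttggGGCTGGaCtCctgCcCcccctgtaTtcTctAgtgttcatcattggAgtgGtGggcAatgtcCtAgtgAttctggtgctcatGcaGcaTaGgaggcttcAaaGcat
Ccr1l1: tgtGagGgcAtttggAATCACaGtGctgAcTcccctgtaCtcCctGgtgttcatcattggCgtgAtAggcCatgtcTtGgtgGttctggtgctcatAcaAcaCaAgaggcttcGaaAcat
The longest run of identical bases in the alignment of the whole coding sequences was 31, shorter than a read.

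Ccr1 at day 0 read 0.453, 0.584, 0.444, 0.218 and 0.685 CPM in the WT libraries and 3.23, 3.71, 2.28, 4.04 and 4.35 CPM in the null libraries. At day 2 it read 0, 0.0591, 0.133, 0.305 and 0.0553 CPM in WT and 4.64, 8.32, 6.81, 3.41 and 5.91 CPM in Abcb10-null. At day 5 it read 0.0729, 0.152, 0, 0 and 0 CPM in WT and 5.05, 8.72, 5.83, 6.64 and 6.25 CPM in Abcb10-null. The groups did not overlap at any day, and the gap widened with the days, since the WT reads thinned out from 38 over the 5 libraries at day 0 to 9 at day 2 and 3 at day 5 while the null level rose. Fitted on the log2 scale, null cells exceeded WT by 2.85 ± 0.29 at day 0, by 5.61 ± 0.54 on day 2 and by 6.91 ± 0.54 on day 5. With only 3 WT reads at day 5, the ratio of summed counts over library size was 145 (exact 95% interval 49.3 to 705, counting error only). In the null cells Ccr1 was higher than at day 0 by 0.76 ± 0.26 on the log2 scale at day 2 and by 0.89 ± 0.21 at day 5, and its 6 group means ran from Abcb10-null day 5 (6.50 CPM) down to WT day 5 (0.045 CPM). The only neighbours in that order that did not overlap were Abcb10-null day 0 and WT day 0.

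Ccr1l1, a chemokine receptor-like gene whose ligand is less well defined, was read 1 time in the 5 WT libraries at day 0, 2 times at day 2 and 1 time at day 5, with 4 of 5 WT libraries at 0 on each day. The null libraries read 8.26, 8.78, 7.18, 6.15 and 8.61 CPM at day 0, 8.07, 16.2, 8.54, 9.61 and 15.9 CPM at day 2, and 17.4, 12.2, 11.9, 11.5 and 14.8 CPM at day 5. Every null library held at least 96 reads of Ccr1l1, so the gene separated the genotypes at each day without overlap. The ratio of summed counts over library size came to 624 (112 to 24700) at day 0, 491 (136 to 4060) at day 2 and 915 (164 to 36200) at day 5, each with an exact 95% interval for counting error only. Within the null cells the log2 change from day 0 was 0.62 ± 0.23 at day 2 and 0.81 ± 0.16 at day 5. At day 5 every null library lay above every null library of day 0, and at day 2 they overlapped. Per kilobase of exon, the level in the null cells at day 0 was 6.68 ± 0.951 CPM (SD, n = 5) for Ccr1l1 and 1.24 ± 0.285 CPM for Ccr1.

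Tlr4 lies on the plus strand at chr4:66827584-66930284 with 6 merged exons. Its reads in the 5 WT libraries summed to 2 at day 0, 1 at day 2 and 16 at day 5, and 12 of those 16 came from replicate 3, at 1.11 CPM against 0 to 0.152 CPM in the other WT libraries of day 5. The null libraries read 2.96, 2.91, 3.84, 2.56 and 3.38 CPM at day 0, 4.31, 1.59, 5.19, 5.17 and 2.33 CPM at day 2, and 2.21, 2.99, 3.17, 1.66 and 3.78 CPM at day 5. The genotypes did not overlap at any day. The ratio of summed counts over library size came to 125 (34.2 to 1030) at day 0, 302 (53.9 to 12000) at day 2 and 11.8 (7.12 to 21.1) at day 5. Without WT replicate 3 the fitted log2 fold change at day 5 moved from 3.38 to 5.11. Within the null cells the log2 change of Tlr4 from day 0 was 0.27 ± 0.31 at day 2 and -0.16 ± 0.25 at day 5, and the days overlapped.

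The sequence before the RefSeq start was at hand for Ccr1 and Ccr1l1 (RefSeq, GRCm38.p6) and is shown for this pair because their levels moved together, with a Pearson r of log2 CPM of 0.94 over the 30 libraries. The 250 bases before Ccr1 lie at chr9:123968693-123968942 and those before Ccr1l1 at chr9:123986716-123986965, both on the minus strand. The RefSeq start of Ccr1l1 lies upstream of the single exon that the counting annotation gives. Each is printed 5′ to 3′ in lower case, with matches of 4 motifs in capitals.
Ccr1: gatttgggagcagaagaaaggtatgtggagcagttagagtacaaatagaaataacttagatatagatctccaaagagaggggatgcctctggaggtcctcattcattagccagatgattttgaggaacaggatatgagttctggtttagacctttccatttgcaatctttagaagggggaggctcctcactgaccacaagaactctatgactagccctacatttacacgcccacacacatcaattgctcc
Ccr1l1: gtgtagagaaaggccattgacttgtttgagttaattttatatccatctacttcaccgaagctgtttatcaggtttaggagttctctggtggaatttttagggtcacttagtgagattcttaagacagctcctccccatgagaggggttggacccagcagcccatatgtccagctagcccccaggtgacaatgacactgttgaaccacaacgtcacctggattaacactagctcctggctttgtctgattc
Neither sequence held GAGGAAGT, AGATAA, TTGCGCAA or TGANTCA on either strand, letters bound by PU.1, GATA factors, C/EBP factors and AP-1. Only these letters were searched, so other forms of such sites were not looked for. Among 32851 promoters of the same kind these were found in 2.44%, 9.99%, 0.16% and 6.75%. Promoter sequence was not used here for Tlr4, Ly9 and Rgs18.

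The second pattern was expression in both genotypes with a higher level in Abcb10-null at all days. Ly9 is at chr1:171588624-171607410 on the minus strand with 11 merged exons. At day 0 Ly9 read 12.4, 10.4, 14, 14.5 and 12.1 CPM in WT and 30.4, 34.7, 36.0, 33.5 and 28.4 CPM in Abcb10-null. At day 2 it read 5.54, 6.14, 3.87, 3.91 and 3.38 CPM in WT and 37.8, 19.4, 30.3, 37.2 and 27.2 CPM in Abcb10-null. At day 5 it read 2.70, 1.45, 2.69, 2.31 and 2.25 CPM in WT and 9.85, 21.7, 20.4, 13 and 13.7 CPM in Abcb10-null. In WT each day lay below the day before without overlap, while in the null cells days 0 and 2 overlapped and the level dropped only by day 5. Null cells exceeded WT on the log2 scale by 1.35 ± 0.10 at day 0, 2.67 ± 0.24 at day 2 and 2.78 ± 0.26 at day 5. The log2 change from day 0 was -1.47 ± 0.18 and -2.47 ± 0.19 at days 2 and 5 in WT, and -0.08 ± 0.16 and -1.04 ± 0.18 in Abcb10-null.

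Rgs18 is at chr1:144752683-144775435 on the minus strand with 5 merged exons. At day 0 Rgs18 read 76.6, 61.5, 73.5, 82.3 and 60.2 CPM in WT and 129, 116, 119, 135 and 94.1 CPM in Abcb10-null. At day 2 it read 15.7, 16.9, 16.5, 15.1 and 14.5 CPM in WT and 74.2, 49.4, 60.8, 90.0 and 46.0 CPM in Abcb10-null. At day 5 it read 16.7, 14.1, 8.81, 15.5 and 6.31 CPM in WT and 55.1, 47.6, 48.2, 63.8 and 60.9 CPM in Abcb10-null. Rgs18 fell in both genotypes but less far in the null cells, whose day 2 libraries overlapped with the WT libraries of day 0. The log2 excess of the null cells came to 0.74 ± 0.10 at day 0, 1.97 ± 0.18 at day 2 and 2.15 ± 0.24 at day 5. From day 0 the log2 change was -2.17 ± 0.11 and -2.52 ± 0.23 in WT and -0.86 ± 0.17 and -1.10 ± 0.11 in Abcb10-null. Per kilobase, Rgs18 had the highest level of the 10 genes in the null cells at day 0, at 58.5 ± 7.78 CPM (SD, n = 5).

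Slc18a2 lies on the plus strand at chr19:59260896-59296012 with 11 merged exons, and 111 of its exon bases (2.124%) overlap the antisense gene Gm29261. At day 0 it read 7.14, 4.53, 5.33, 7.04 and 6.29 CPM in WT and 25.7, 27.8, 19.1, 25.6 and 25.8 CPM in Abcb10-null. At day 2 it read 14.4, 11, 14.5, 9.22 and 12.2 CPM in WT and 45.9, 20.5, 43.7, 42.7 and 45 CPM in Abcb10-null. At day 5 it read 7.0, 6.09, 4.17, 6.07 and 5.60 CPM in WT and 53.0, 60.1, 58.0, 51.9 and 47.8 CPM in Abcb10-null. WT went up at day 2 and came back, and the null cells went up at both days, with replicate 2 of day 2 well below its group. On the log2 scale the null cells were higher by 2.02 ± 0.13 at day 0, 1.64 ± 0.22 at day 2 and 3.21 ± 0.15 at day 5. The log2 change from day 0 was 1.01 ± 0.17 at day 2 and -0.07 ± 0.19 at day 5 in WT, and 0.70 ± 0.19 and 1.14 ± 0.11 in Abcb10-null.

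**Figure D2:**
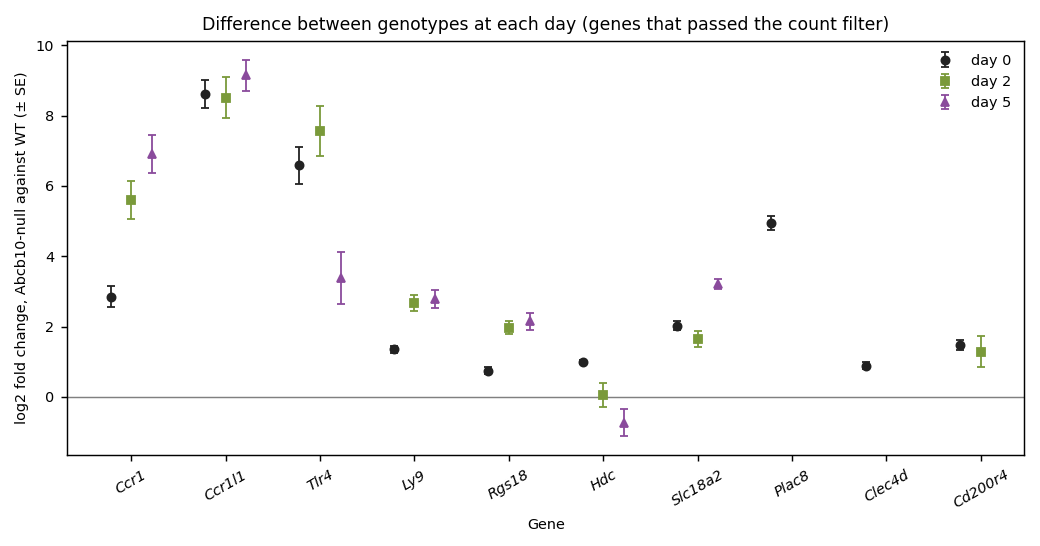
Fitted log2 difference between null and WT cells (± SE, edgeR) for each gene at day 0 (circles), day 2 (squares) and day 5 (triangles), with a line at 0; genes below the count filter at a day have no point. All points lie above 0 but that of Hdc at day 5 (-0.73), and the difference of Ccr1 ran from 2.85 at day 0 to 6.91 at day 5.

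The third pattern was a level that was higher in Abcb10-null at day 0 and nearly gone in both genotypes by day 2. Hdc, the enzyme that makes histamine, is at chr2:126593667-126619299 on the minus strand with 12 merged exons. At day 0 Hdc read 97.0, 89.1, 92.0, 89.1 and 93.8 CPM in WT and 176, 192, 183, 204 and 169 CPM in Abcb10-null. At day 2 it read 2.77, 1.48, 3.94, 3.23 and 3.21 CPM in WT and 2.40, 4.76, 2.25, 2.01 and 4.15 CPM in Abcb10-null. At day 5 it read 2.11, 1.6, 3.25, 1.08 and 2.45 CPM in WT and 1.33, 1.31, 1.30, 1.87 and 0.540 CPM in Abcb10-null. The genotypes were apart at day 0 and overlapped at days 2 and 5. The log2 difference, null minus WT, came to 1.00 ± 0.063 at day 0, 0.05 ± 0.34 at day 2 and -0.73 ± 0.39 at day 5. From day 0 the log2 change was -4.98 ± 0.18 and -5.47 ± 0.20 at days 2 and 5 in WT, and -5.85 ± 0.23 and -7.19 ± 0.16 in Abcb10-null. As summed counts over library size, the level at day 5 was 44.9 times (37.9 to 53.5) lower than at day 0 in WT and 148 times (120 to 184) lower in Abcb10-null.

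Hdc and Slc18a2, which act one after the other in storing histamine, thus parted over the days. Their log2 CPM had a Pearson r of -0.24 over the 30 libraries, a description in which the groups themselves set most of the spread. Per kilobase, Hdc stood at 29 ± 2.15 CPM and Slc18a2 at 4.75 ± 0.629 CPM (SD, n = 5) in the null cells at day 0. At day 2 in the same cells Hdc stood at 0.487 ± 0.195 and Slc18a2 at 7.57 ± 2.06 CPM per kilobase.

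Plac8 is at chr5:100553725-100572245 on the minus strand with 5 merged exons. At day 0 Plac8 read 0.453, 0.657, 1.05, 0.363 and 0.436 CPM in WT, 48 reads in all, and 17.3, 18.9, 20.1, 19.3 and 18.3 CPM in Abcb10-null. The day 0 groups were wide apart and the null libraries close together, with a log2 fold change of 4.94 ± 0.19. By day 2 the null libraries had dropped to 0.546, 0.545, 0.367, 0.426 and 0.622 CPM and the WT libraries read 0.0603, 0.355, 0.133, 0.244 and 0.111 CPM. All null libraries of day 2 still lay above all WT libraries, at a ratio of summed counts over library size of 2.79 (1.53 to 5.36), although the gene was below the count filter of the test. At day 5 the 5 null libraries held 11 reads and the 5 WT libraries 4, a ratio of 2.55 (0.757 to 11), and they overlapped. In the null cells the log2 change from day 0 was -5.17 ± 0.18 at day 2 and -6.86 ± 0.35 at day 5. In WT, from its far lower start, the summed counts over library size were 3.35 times (1.84 to 6.44) lower at day 2 and 10.2 times (3.72 to 38.8) lower at day 5.

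Clec4d is at chr6:123262111-123275265 on the plus strand with 6 merged exons. At day 0 Clec4d read 14.8, 14.1, 17.4, 13.4 and 12.1 CPM in WT and 25.6, 26.5, 27.1, 31.6 and 23.1 CPM in Abcb10-null, a log2 fold change of 0.89 ± 0.11 without overlap. At day 2 its reads summed to 6 in WT and 34 in Abcb10-null, at a ratio over library size of 5.04 (2.09 to 14.7), and the groups overlapped. At day 5 they summed to 28 in WT and 9 in Abcb10-null, and all 9 null reads were in replicate 4. The remainder of the Clec4d signal was thus on the null side at day 2 and, but for that library, on the WT side at day 5, where the ratio of Abcb10-null to WT was 0.298 (0.124 to 0.650). From day 0 the log2 change was -7.49 ± 0.31 and -5.08 ± 0.23 at days 2 and 5 in WT, and -6.15 ± 0.38 and -7.63 ± 0.48 in Abcb10-null. In WT all 5 libraries of day 5 lay above all 5 of day 2.

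Cd200r4 is at chr16:44811733-44839150 on the plus strand with 8 merged exons. At day 0 Cd200r4 read 16.9, 15.9, 17, 22.5 and 10.9 CPM in WT and 52.3, 44.1, 42.2, 54.6 and 38.4 CPM in Abcb10-null. At day 2 it read 0.301, 0.827, 0.601, 0.366 and 0.553 CPM in WT and 0.873, 1.54, 1.36, 0.669 and 2.28 CPM in Abcb10-null. At day 5 it read 0.947, 0.837, 1.11, 0.506 and 0.451 CPM in WT and 0.0631, 0.311, 0.622, 1.04 and 0.694 CPM in Abcb10-null. The genotypes were apart at day 0, with 4 of 5 null libraries above all WT libraries at day 2 and an overlap at day 5. The log2 fold change between genotypes was 1.47 ± 0.14 at day 0 and 1.29 ± 0.43 at day 2. From day 0 the log2 change was -4.95 ± 0.27 and -4.45 ± 0.28 in WT, and -5.06 ± 0.26 and -6.49 ± 0.27 in Abcb10-null. Of the 2043 stretches of 51 bases in its transcripts, 98 (4.8%) occur in other transcripts too, mostly of Cd200r2 and Cd200r1, so a small part of its reads could have been split among these paralogs.

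Hdc, Clec4d and Cd200r4 moved together across all libraries, with a Pearson r of log2 CPM of 0.96 for each pair over 30 libraries. Their RefSeq promoters (GRCm38.p6) are shown with that of Slc18a2, the partner of Hdc that did not follow it. The 250 bases before the start lie at chr2:126618679-126618928 on the minus strand for Hdc, chr6:123261857-123262106 on the plus strand for Clec4d, chr16:44820478-44820727 on the plus strand for Cd200r4 and chr19:59260628-59260877 on the plus strand for Slc18a2, and capitals mark a match of the 4 motifs named above. The RefSeq starts of Hdc and Cd200r4 lie inside these genes as the counting annotation draws them, and so do the windows shown.
Hdc: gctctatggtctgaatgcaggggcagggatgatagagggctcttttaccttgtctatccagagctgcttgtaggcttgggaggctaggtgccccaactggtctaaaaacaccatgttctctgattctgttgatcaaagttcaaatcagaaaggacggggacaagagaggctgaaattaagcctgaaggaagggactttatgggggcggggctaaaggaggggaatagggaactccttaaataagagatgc
Clec4d: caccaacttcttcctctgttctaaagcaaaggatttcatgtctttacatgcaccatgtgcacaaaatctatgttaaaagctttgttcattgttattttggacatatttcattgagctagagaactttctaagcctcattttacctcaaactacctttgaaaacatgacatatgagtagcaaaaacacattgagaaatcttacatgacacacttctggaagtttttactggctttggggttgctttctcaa
Cd200r4: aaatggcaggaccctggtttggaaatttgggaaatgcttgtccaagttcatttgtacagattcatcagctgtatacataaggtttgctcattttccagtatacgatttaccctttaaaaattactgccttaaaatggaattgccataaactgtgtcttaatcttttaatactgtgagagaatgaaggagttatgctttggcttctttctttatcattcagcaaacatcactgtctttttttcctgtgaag
Slc18a2: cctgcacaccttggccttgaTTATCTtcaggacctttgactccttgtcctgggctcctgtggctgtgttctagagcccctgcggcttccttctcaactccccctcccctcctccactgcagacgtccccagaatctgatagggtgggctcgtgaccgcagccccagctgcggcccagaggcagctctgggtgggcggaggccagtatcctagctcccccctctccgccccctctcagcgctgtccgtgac
The only match was AGATAA in the Slc18a2 sequence, read on the other strand as TTATCT, 230 bases before the start. These letters stand in 9.99% of all promoters, and a match or its absence is a description of this window.

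The number of the 10 genes called by day is given beside the share of all genes. As the genes were chosen partly for their fall during differentiation, these counts restate that choice. In WT, 6 of the 10 passed the count filter against day 0. At day 2, 5 of them (Ly9, Rgs18, Hdc, Clec4d and Cd200r4) were called lower and Slc18a2 higher, beside 30.7% and 31.5% of all genes tested. At day 5 the same 5 were called lower and none higher, beside 34.7% and 36.5% of all genes. In Abcb10-null all 10 passed. At day 2, 5 (Rgs18, Hdc, Plac8, Clec4d and Cd200r4) were called lower and 3 (Ccr1, Ccr1l1 and Slc18a2) higher, beside 20.1% and 23.1% of all genes. At day 5, Ly9 joined those called lower, for 6, and the same 3 were higher, beside 33.3% and 33.9% of all genes. The day 2 call of Ccr1 in the null cells was lost in a fit blocked by replicate number, and those of Ccr1 and Ccr1l1 were lost with all 30 libraries in 1 fit and in several fits that left out 1 library.

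**Figure D3:**
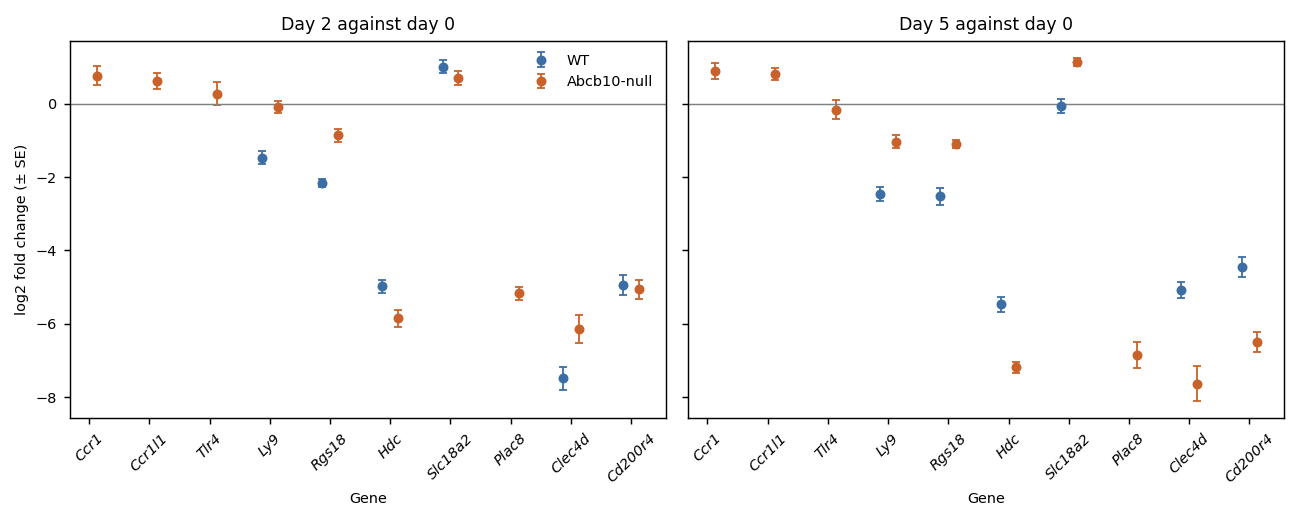
Fitted log2 fold change (± SE, edgeR) of each gene at day 2 (left) and day 5 (right) against day 0 of the same genotype, for WT (blue) and Abcb10-null (orange), with a line at 0; genes below the count filter have no point. Hdc, Clec4d and Cd200r4 fell in both genotypes, to log2 changes of -4.98, -7.49 and -4.95 at day 2 in WT, whereas Ccr1, Ccr1l1 and Slc18a2 rose in Abcb10-null.

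The difference between the genotypes in the change from day 0 was also taken, as the null log2 change minus the WT log2 change. It is built from the levels and falls on which the genes were chosen, so its calls are a description only. For day 2 it was 2.80 ± 0.62 for Ccr1, 1.37 ± 0.24 for Ly9 and 1.28 ± 0.21 for Rgs18, the 3 called higher, and -0.89 ± 0.28 for Hdc and -3.50 ± 0.52 for Plac8, the 2 called lower, beside 12% and 10.8% of all genes. For day 5 it was 4.10 ± 0.65 for Ccr1, 1.45 ± 0.27 for Ly9, 1.43 ± 0.25 for Rgs18 and 1.21 ± 0.20 for Slc18a2, the 4 called higher, beside 16.8% of all genes. The 5 called lower, beside 14.7% of all genes, were Hdc at -1.71 ± 0.27, Cd200r4 at -2.03 ± 0.47, Clec4d at -2.52 ± 0.77, Plac8 at -3.68 ± 1.3 and Tlr4 at -3.12 ± 1.2. The value of Tlr4 rests on WT replicate 3 of day 5, and its call and that of Plac8 were lost when single libraries were left out. By day 5 Ly9 and Rgs18 had thus kept more of their day 0 level in the null cells than in WT. Hdc and Cd200r4 had lost more of theirs in the null cells, from a higher start. Plac8 in WT went from only 48 reads at day 0 to 4 at day 5, so WT could not show a fall as deep as that of the null cells. For Clec4d the deeper fall in the null cells rests on day 5 libraries of which 1 held all 9 reads.

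Genes of the same pathways that are not among the 10 were taken from 9 lists of 196 genes, of which 195 were in the table and 3 had no read. These genes were tested in the fit over all genes, and values given without a p passed at an adjusted p under 0.05. At day 0, 42 of the 81 listed genes that were tested were higher in Abcb10-null and 5 were lower, beside 19.7% and 16.2% of all genes, and the median of their log2 fold changes was 0.33 beside -0.002 over all genes. At day 2, 17 of 68 were higher and 6 lower, beside 14.9% and 16.9% of all genes, and at day 5, 27 of 73 were higher and 8 lower, beside 19.8% and 17.8%. A gene could pass the filter through the group in which it was higher alone, so these counts and medians are a description of the genes that passed. With all 30 libraries in 1 fit the calls at day 0 went from 47 to 21, of which 20 were higher.

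Of 14 mast cell genes tested at day 0, 11 were higher in Abcb10-null and none lower, beside 19.7% and 16.2% of all genes, and the median of the 14 log2 fold changes was 1.13. The filter set part of this count and median, since genes that are nearly unread in WT passed only through the null libraries and could not have come out lower. Of the 11, Gzmb, Fcer1a, Cpa3 and Ms4a2 had WT means of 0.187 to 0.414 CPM, and the other 7 stood at 1.31 CPM or more in WT. The largest rises were in Gzmb, a granule protease (4.33 ± 0.34, adjusted p = 1.38e-08), Fcer1a, the alpha chain of the high-affinity IgE receptor (3.53 ± 0.48, adjusted p = 1.39e-05), and Mcpt2, a mast cell protease (2.70 ± 0.096, adjusted p = 8.92e-14), all by edgeR. Gzmb stood at 8.96 ± 1.26 CPM in Abcb10-null and 0.414 ± 0.383 CPM in WT, and Fcer1a at 2.38 ± 1.07 and 0.187 ± 0.173 CPM (SD, n = 5). At day 2, 3 of 11 were higher, beside 14.9% of all genes, Il1rl1 by 1.81, Mcpt2 by 0.86 and Srgn by 0.64. Ndst2 was lower, at -0.91, beside 16.9% of all genes. At day 5, 5 of 12 were higher, led by Il1rl1 (1.99), Mcpt2 (1.69) and Alox5 (1.0), beside 19.8% of all genes. None was lower, beside 17.8% of all genes, although the median over the 12 was -0.23. In the null cells 9 of 14 fell from day 0 to day 5, with Gzmb at -8.69 ± 0.44, and 4 rose, beside 33.3% and 33.9% of all genes. Kit, the stem cell factor receptor that defines mast cells, was below the filter in every comparison, with means of 0.37 (WT) and 0.3 CPM (Abcb10-null) at day 0. By day 2 Gzmb and Fcer1a stood at means of 0.117 and 0.0514 CPM in Abcb10-null.

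Histamine handling was sparsely covered, with 2 of 14 listed genes tested at day 0. Hnmt, which breaks histamine down, was lower in Abcb10-null at every day, with log2 fold changes of -2.88 ± 0.18 (adjusted p = 5.2e-10) at day 0, -2.47 ± 0.34 (adjusted p = 0.00107) at day 2 and -1.46 ± 0.29 (adjusted p = 0.00191) at day 5 (edgeR). At day 0 it stood at 12.3 ± 2.12 CPM in WT against 1.68 ± 0.442 CPM in the null cells (SD, n = 5). Slc22a3, a transporter that carries histamine across the plasma membrane, was higher in Abcb10-null at day 0 by 1.02 ± 0.092 (edgeR, adjusted p = 7.6e-08), at 99.4 ± 13.4 against 48.7 ± 4.35 CPM. Slc22a3 fell in both genotypes by day 5, with log2 changes of -3.47 ± 0.21 in WT and -4.94 ± 0.25 in Abcb10-null, beside the fall of Hdc over the same days. Ddc, another amino acid decarboxylase, rose by 4.4 ± 0.68 in Abcb10-null by day 5, where it stood at 3.08 ± 2.47 CPM.

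Of the granulocyte and monocyte genes, 7 of 15 tested were higher and 2 lower at day 0. At day 2, 3 of 11 were higher and none lower, and at day 5, 6 of 12 were higher and 1 lower. The shares of all genes at the 3 days were 19.7%, 14.9% and 19.8% higher and 16.2%, 16.9% and 17.8% lower. Ctss (1.97), Csf1r (1.56) and Lyz2 (1.52) led at day 0, while Fcgr1 (-0.68) and Prtn3 (-0.35) were lower. Fcgr1, a high-affinity IgG receptor, was then higher by 3.69 ± 0.57 at day 2 and 4.12 ± 0.52 at day 5 (adjusted p = 0.00198 and 8.88e-05, edgeR). At day 2 Fcgr3 (1.20) and Cyba (0.38) were also higher. At day 5 Lyz2 (2.18) and Ncf1 (2.05) were higher and Ncf4 (-1.14) was lower.

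Around Ccr1, the other chemokine receptors and the Ccr1 ligands were mostly below the count filter, with 5, 4 and 5 of 28 tested at the 3 days, and 1 of the 28 had no read in any library. Ccl9, a ligand of Ccr1, was higher in Abcb10-null at day 0 by 1.95 ± 0.14 (adjusted p = 2.64e-09, edgeR), at 16.4 ± 1.47 against 4.24 ± 0.884 CPM, and fell to means of 0.0728 CPM at day 2 and 0.0516 CPM at day 5 in the null cells, in which Ccr1 stayed on. Ccr2, a receptor of monocytes, was higher by 0.57 at day 0 and 0.72 at day 2, and Cxcr4 by 0.82, 1.35 and 1.29 at the 3 days. Cxcr2 was lower at day 0 (-0.60) and Ccrl2 at day 5 (-0.50). The protein-coding neighbours of the receptor pair were below the filter, Xcr1 100.1 kb from Ccr1 and Ccr3 43.6 kb from Ccr1l1, with at most 3 reads in any day 0 library.

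Around Tlr4, 4 of 17 listed genes tested were higher at day 0, a share near the 19.7% of all genes, including Tlr6 (1.50), Cd14 (1.12), which hands lipopolysaccharide to Tlr4, and Cd180 (0.79). Tlr6 was higher at day 2 (1.35) and day 5 (1.66) as well. At day 2, 2 of 15 were higher and 3 lower, near the 14.9% and 16.9% of all genes, with Nfkb1 at 0.53 and with the adaptor Ticam1 at -1.84, Irak1 at -1.26 and Rela at -1.07. At day 5, 5 of 15 were higher and 3 lower, beside 19.8% and 17.8% of all genes, with Nfkb1 and Myd88 both at 0.46, Ticam1 at -1.60, Traf6 at -0.44 and Map3k7 at -0.35. In the neighbourhood of Tlr4 the flanking genes Astn2 and Brinp1 had no read in any day 0 library.

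Of the SLAM family of Ly9, Cd48 and Cd84 were higher in Abcb10-null at all 3 days, Cd48 by 0.46, 0.64 and 0.62 and Cd84 by 0.59, 0.69 and 0.69. Slamf9 was higher at day 0 (0.93) and day 5 (4.92 ± 0.71, adjusted p = 0.000215, edgeR), and Slamf1 was lower at day 5 (-2.28 ± 0.47, adjusted p = 0.00229). Like Ly9 in WT, Cd48 fell by 2.81 in WT on the log2 scale from day 0 to day 5, and it fell by 2.63 in Abcb10-null. Of the RGS family of Rgs18, 2 of 5 tested were higher at day 0, Rgs1 (0.68) and Rgs10 (0.32), beside 19.7% of all genes. At day 2 none of 5 was called, beside 14.9% of all genes higher and 16.9% lower, and at day 5 Rgs19 was higher (1.31) and Rgs10 lower (-0.44).

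Among C-type lectins and CD200 receptors with their signalling partners, the families of Clec4d and Cd200r4, 8 of 10 tested were higher in Abcb10-null at day 0 and 1 was lower, beside 19.7% and 16.2% of all genes. The rises were largest in Cd200r3 (2.19 ± 0.11, adjusted p = 1.39e-11), Cd200r2 (1.61 ± 0.25, adjusted p = 6.65e-05) and Clec2d (1.33 ± 0.17, adjusted p = 7.29e-06), all by edgeR, and Dok2 was at -0.31. Cd200r1 and Cd200r2 flank Cd200r4 at 16.8 and 27.9 kb, and Cd200r1 was higher by 0.82 at day 0 and 1.07 at day 5. Clec4e, 6.5 kb from Clec4d, was higher by 1.11 ± 0.28 at day 0 (edgeR, adjusted p = 0.00503), while Clec4n on its other side had no read at day 0. At day 2 only Rasa1 (0.38) was called of 7 tested, beside 14.9% of all genes higher. At day 5 Fcer1g (1.72) and Cd200r1 were higher of 6 tested, beside 19.8% of all genes. Cd200r3 followed the course of Cd200r4, from 7.29 (WT) and 33.6 CPM (Abcb10-null) at day 0 to 0.0824 and 0.276 CPM at day 2. Of the genes beside Hdc and Slc18a2, Slc27a2, 5.4 kb from Hdc, and Kcnk18, 23.5 kb from Slc18a2, were below the count filter at every day. The neighbours on the other side were tested and not called at day 0, Gabpb1, 8.1 kb from Hdc (-0.15 ± 0.096, edgeR, adjusted p = 0.223), and Pdzd8, 1.2 kb from Slc18a2 (-0.06 ± 0.07, adjusted p = 0.498), and likewise at days 2 and 5. Coq2, 82.5 kb from Plac8, was higher by 0.31, 0.47 and 0.73 at days 0, 2 and 5, and Cops4, 5.9 kb away, by 0.46 at day 5.

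Of the myeloid and mast cell transcription factors, 3 of 9 tested were higher at day 0, Mitf (0.49), Cebpa (0.38) and Fli1 (0.38), beside 19.7% of all genes. Mitf, a master regulator of mast cell genes, stayed higher at day 2 (1.04 ± 0.24, adjusted p = 0.00799) and day 5 (0.79 ± 0.15, adjusted p = 0.00157), by edgeR. Spi1, which encodes PU.1, was not called at day 0 (0.07 ± 0.091), and it was higher by 0.89 ± 0.28 at day 2 and 1.38 ± 0.18 at day 5 (edgeR, adjusted p = 0.0296 and 0.000123). The log2 change of Spi1 from day 0 to day 5 was -2.47 ± 0.13 in WT and -1.14 ± 0.15 in Abcb10-null, beside the falls of Ly9 and Rgs18 given above. Cebpb was higher at day 2 (1.09) and day 5 (1.85), and Runx1 was at -1.06 at day 2.

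**Figure D4:**
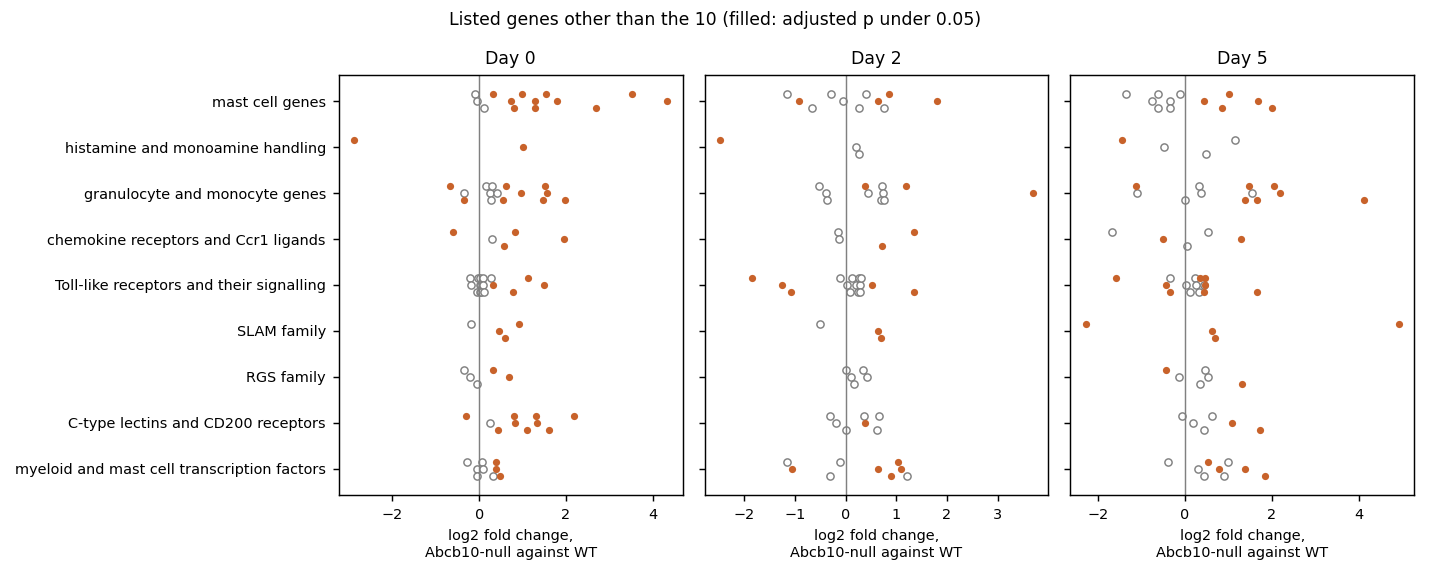
Fitted log2 difference between null and WT cells for the tested genes of 9 lists (rows) at day 0, 2 and 5, 1 point per gene, filled where the adjusted p was under 0.05 (edgeR) and open otherwise; vertical offsets only separate points. At day 0 the filled points of mast cell genes all lie above 0 and reach 4.33 (Gzmb), while that of Hnmt lies at -2.88.

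Over the days, 35 of 69 listed genes tested in WT were lower and 17 higher at day 2, beside 30.7% and 31.5% of all genes. At day 5 in WT, 37 of 70 were lower and 21 higher, beside 34.7% and 36.5%, and with all genes of at least 1 count the split was 45 lower and 46 higher. In Abcb10-null 44 of 83 were lower and 15 higher at day 2, beside 20.1% and 23.1% of all genes, and 40 of 84 lower and 21 higher at day 5, beside 33.3% and 33.9%. The deepest fall in WT by day 5 was that of Tyrobp, a signalling adaptor of activating myeloid receptors, at -8.29 ± 0.41, and in Abcb10-null that of Gzmb, at -8.69 ± 0.44. The largest rises by day 5 were in Csf2rb2, a subunit of the receptor for interleukin 3, at 7.29 ± 0.73 in WT and 4.67 ± 0.22 in Abcb10-null. Granulocyte and monocyte genes had the lowest list median in WT at day 5, -2.70 beside 0.023 over all genes, and C-type lectins and CD200 receptors that in Abcb10-null, -1.98 beside 0.014.

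The genes most like each of the 10 were looked up by the Pearson r of log2 CPM over the 30 libraries among 12142 genes with a mean of at least 1 CPM, as a description in which all libraries and groups are shared. Gm16579, an antisense gene on chromosome 5, was closest to Ccr1l1 (0.981), Ccr1 (0.934) and Slc18a2 (0.927), and its group means were at most 0.0375 CPM in WT and went from 1.38 CPM at day 0 to 4.21 CPM at day 5 in Abcb10-null. Fyn, a Src family kinase, came next for Ccr1l1 (0.953) and Ccr1 (0.929) and first for Tlr4 (0.906). For Ccr1 the third was Gng2 (0.896), for Ccr1l1 Gm4961 (0.904), and for Tlr4 the second and the third were Trim34b (0.898) and Gm4961 (0.896). For Slc18a2 they were Galnt11 (0.909) and Glb1 (0.906).

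Ly9 was nearest to Mettl3 (0.947), Arhgap15 (0.943) and Atg10 (0.939), and Rgs18 to Cbfb (0.953), Palld (0.942) and Zdhhc13 (0.939). Pilrb1, a paired immunoglobulin-like receptor, was the nearest gene to Cd200r4 (0.965) and Clec4d (0.961) and the third for Hdc (0.972), with 5.24 (WT) and 13.2 CPM (Abcb10-null) at day 0 and group means of 0.0516 to 0.118 CPM later. Hdc was nearest to Col5a1 (0.975) and Grb2 (0.973). Cd200r4 was next to Pilra (0.961) and Trib2 (0.958), and Clec4d to Fbp2 (0.954) and Grb2 (0.954). Plac8 stood with the interferon-stimulated genes Oas1a (0.940) and Oas2 (0.935) and with the transporter Slc6a12 (0.936). Oas1a went from 10.5 (WT) and 66.2 CPM (Abcb10-null) at day 0 to 5.29 and 13.6 CPM at day 2.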

How the data were processed

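RNA of 30 MEL cell cultures (5 libraries for each genotype and day) was depleted of globin and ribosomal RNA and read for 51 cycles. The deposited file holds raw read counts per Ensembl gene, made by the authors with STAR 2.6.1b and featureCounts 1.6.3 on GRCm38, tools and versions as in the submitters' processing notes. The strand and multimapping settings of the counting are not given in the sources used here. Library totals ran from 9906783 to 20157768 counts (median 16492116.5), and 9219 of 54532 genes had no count.

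Genes were named from the GRCm38 annotation, which gave 54409 symbols. Genotypes within a day, days within a genotype and their interaction were fitted with edgeR 4.0.16 in R 4.3.3 (quasi-likelihood test, TMM, filterByExpr), on the libraries compared, with p-values adjusted by Benjamini-Hochberg over every gene tested and called under 0.05. Fits were tested on simulated data. The 10 genes, the 9 lists, the marker lists and the tests were chosen with earlier results of these data known, so no p-value is given for the 10 genes. Where a group held few reads, the ratio of summed counts over library size is given with its exact (Clopper-Pearson) 95% interval, which covers counting error only, and the fitted log2 value then depends on the prior count. Named beside the 10 genes are Abcb10, the protein-coding neighbours, the 3 genes most alike in log2 CPM, and, for each list and comparison of genotypes, the 3 largest rises and falls among called genes with a mean of at least 1 CPM in either group. Of the day comparisons only leading genes are printed. Cd200r3 and Ddc levels, Kit, Pilrb1 and Gm16579 levels were picked for the text after their values were seen.

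Same-numbered replicates of different groups were not paired (75 pairs, r of deviations from group means -0.26 to 0.43, median -0.0145). No replicates agreed within sampling noise (lowest chi-square per degree of freedom 6.48). Nothing in the labels says how the replicate cultures were separated, so p-values measure the spread between these samples. Alternatives were DESeq2 1.42.0, its size factors in edgeR, all genes with at least 1 count, all 30 libraries in 1 fit, the replicate number as a block, and leaving out each library.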

Additional observations from a re-analysis of the deposited data

Results flagged for a closer look

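Among the 52 combinations of gene and group with more than 3 reads in a library, 4 held a library that stood apart from the other 4 by Dixon's test for a single extreme value, which chance alone does in about 1 of 20 groups. Tlr4 read 1.11 CPM in WT replicate 3 of day 5 against 0.0 to 0.152 CPM in the others. Slc18a2 read 19.1 CPM in Abcb10-null replicate 3 of day 0 against 25.6 to 27.8 CPM, and 20.5 CPM in Abcb10-null replicate 2 of day 2 against 42.7 to 45.9 CPM. Clec4d read 0.934 CPM in Abcb10-null replicate 4 of day 5 and 0.0 in the others.

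All WT libraries of day 5 lay below all WT libraries of day 0 for Ccr1 and all null libraries of day 5 above those of day 0, at a null mean of 6.5 CPM. As the gene was chosen on these data, no p-value is given for that difference.

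Of the listed genes named above, 16 differed between the genotypes in their change from day 0 to day 2 (edgeR interaction, adjusted p under 0.05). The null log2 change minus the WT log2 change was negative for Ccl9 (-3.53), Ticam1 (-2.07), Csf1r (-2.01), Mcpt2 (-1.79), Irak1 (-1.02), Rela (-0.98), Ndst2 (-0.97), Runx1 (-0.93), Slc22a3 (-0.76) and Cebpa (-0.63). It was positive for Nfkb1 (0.54), Rgs19 (0.6), Spi1 (0.87), Cebpb (1.43), Slamf9 (3.8) and Fcgr1 (4.42).

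For the change from day 0 to day 5, 18 of 90 listed genes tested were called higher and 14 lower, beside 16.8% and 14.7% of all genes. Among those named above, the same difference was negative for Ccl9 (-3.45), Slamf1 (-2.08), Ticam1 (-1.85), Ncf4 (-1.68), Slc22a3 (-1.47), Mcpt2 (-0.99), Ccrl2 (-0.77), Rgs10 (-0.74), Srgn (-0.52), Ccr2 (-0.5), Traf6 (-0.46) and Map3k7 (-0.4). It was positive for Nfkb1 (0.44), Prtn3 (0.74), Dok2 (0.75), Cyba (0.77), Fcer1g (0.92), Alox5 (1.11), Spi1 (1.33), Hnmt (1.44), Rgs19 (1.52), Cebpb (2.15), Slamf9 (4.0) and Fcgr1 (4.81).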

How the results depend on the processing

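No called value of the 10 genes changed sign under the alternatives run, and the values near 0 of Hdc between genotypes at day 2, Ly9 at day 2 in the null cells and Slc18a2 at day 5 in WT changed sign when single libraries were left out. Of 18 counts of called genes, none moved by more than 1.5 times with DESeq2, with its size factors in edgeR or with the replicate number as a block, where 4220, 3955 and 4378 genes were called between genotypes at days 0, 2 and 5 and 45 listed genes at day 0. The block changed the call of 1 of the 10 genes named above, Ccr1 at day 2 in the null cells. With all 30 libraries in 1 fit, 1584 genes were called at day 0 (66.2% of them higher in Abcb10-null) against 4642 (54.9% higher), and 21 listed genes in place of 47 were called at day 0, 37 in place of 23 at day 2, and 12 in place of 21 for the day 2 interaction. With all genes of at least 1 count, listed genes called at day 5 in WT went from 58 (21 higher, 37 lower) to 91 (46 higher, 45 lower). The majority among all genes called was small and turned in several comparisons. Between genotypes it went from 1944 higher and 2207 lower to 3200 and 2754 at day 2 with all 30 libraries in 1 fit, and from 2509 and 2260 to 1726 and 2076 at day 5 with all genes of at least 1 count. For the day 2 interaction it went from 1679 and 1509 to 1803 and 1896 with DESeq2 and to 1571 and 1805 with all genes of at least 1 count, and it also turned in most fits that left out a library. With the block it went from 4049 and 3936 to 3703 and 3728 for WT at day 2, and from 4380 and 4297 to 4191 and 4246 for Abcb10-null at day 5. At day 5 in WT, 62.9% of the calls were higher with all genes of at least 1 count against 51.3%. The cause of these shifts was not tested. Leaving out 1 library gave 2665 to 5357 genes at day 2 (4151 with all), with 2665 without Abcb10-null replicate 1 and 2744 without WT replicate 2. Of 570 such values of the 10 genes, 9 moved beyond their spread, each resting on single libraries with the few reads of a group, as for Tlr4 at day 0 (8.77 without WT replicate 2), day 2 (9.03 without WT replicate 3) and day 5 (5.11 without WT replicate 3), Ccr1l1 (10.07, 10.68 and 10.55 at days 0, 2 and 5), Ccr1 (6.39 and 7.87 at days 2 and 5) and Clec4d from day 0 to day 5 in Abcb10-null (-11.84 without replicate 4). Depth limits what can be said of Ccr1, Ccr1l1 and Tlr4 in WT, and of Plac8 and Clec4d after day 0.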

Other observations

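Of the mast cell genes listed, 12 were below the count filter in every comparison, with at most 26 reads in any library, and of the histamine and monoamine genes 10 were, with at most 16 reads.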
